A study of Mus musculus with 60 samples.

Results

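The genes described here encode the subunits and some assembly factors of the mitochondrial respiratory chain. They were measured in whole lung of mice that inhaled superparamagnetic iron oxide (SPIO) nanoparticles and in sham mice (CON). Members were the genes whose symbol on the array begins with Nduf followed by a, b, c, s or v (complex I), is Sdha, Sdhb, Sdhc or Sdhd (complex II), or begins with Uqcr (complex III), Cox4 to Cox8 (complex IV) or Atp5 (complex V). This gave 90 genes of 18193 measured, of which 44 were in complex I, 4 in complex II, 8 in complex III, 17 in complex IV and 17 in complex V. The complex was assigned by the symbol alone, and Ndufa4 and Ndufa4l2 were counted in complex I only by their names. Each gene was read from its brightest probe set, in log2 units.

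The arrays came from 60 Balb/c mice labelled male, whose age the labels do not give. SPIO mice breathed the nanoparticle aerosol through the nose for 4 h, and CON mice breathed the same humidified mixture of helium, oxygen and filtered air without particles. The right diaphragmatic lobe was taken from 5 SPIO and 5 CON mice at each of 0, 6, 24, 48, 96 and 168 h afterwards. Mice of both arms at 96 h had also been in plethysmographs during the exposure, and those of 168 h lived in metabolism cages with liquid food. The 6 lung markers, among them the surfactant protein gene Sftpc, were bright in every group, and their mean ran between 13.62 and 13.96 in SPIO mice and between 13.74 and 14.07 in CON mice. Array 1 of CON at 0 h stood apart and went against its label, since Xist, the RNA of the inactive X chromosome of females, was at 11.94 there, against 5.16 to 6.02 in the other 59 arrays. It also had the highest levels of the liver gene Alb (14.02), the skeletal muscle gene Acta1 (11.43) and the fat gene Adipoq (11.31). Without it 21 members were higher and 1 was lower at 24 h, against 20 and 1 with all arrays, and the results it moved further are given with and without it.

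The respiratory chain moves electrons from NADH through complex I, or from succinate through complex II, to complex III and then by cytochrome c to complex IV, where oxygen is reduced. The protons pumped on the way drive complex V, the ATP synthase. Most subunits are encoded in the nucleus, the others in mitochondrial DNA, and heart muscle, which depends on oxidative metabolism, uses its own isoforms of several complex IV subunits.

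Most members differed little between SPIO and CON lungs, and 24 h was the time with the most calls. At 24 h, 20 members were higher and 1 was lower in SPIO lungs (limma, adjusted p under 0.05 over all genes). The share of all genes called higher at 24 h was 20.3% and the share called lower was 3.66%, so the members' count of higher calls was near the background. The median log2 fold change of the members at 24 h was 0.156, against 0.09 over all genes. Above 0 at 24 h were 76 of 90 members (84.4%), beside 66.5% of all genes. Of the members, 75 had a mean of at least 9, and 24% of these were called higher at 24 h. Among all 4307 genes with such a mean, 27.9% were called higher, the median was 0.115 and 70.5% were above 0. At 96 h, 76 of 90 members were likewise above 0, beside 69.0% of all genes. In 12 members every SPIO mouse lay above every CON mouse at 24 h, which 9.96% of all genes also did. All called members changed by less than 1.5-fold, so a minimum of that size left 0 called. In whole lung, fewer cells of a type and less RNA per cell cannot be told apart.

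**Figure D1:**
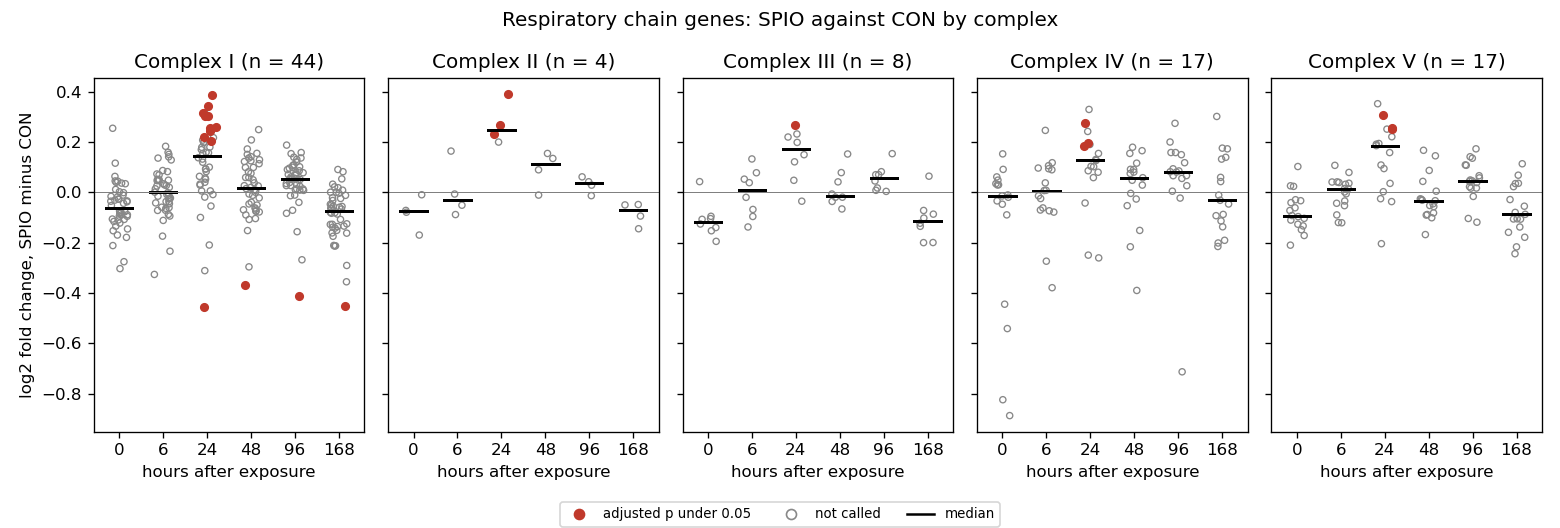
Log2 fold change of SPIO over CON (vertical axis) for each respiratory chain gene, by complex and by hours after exposure (horizontal axis); filled points passed an adjusted p under 0.05 and the line is the median. The filled points above 0 are the 20 genes at 24 h, and the filled points below 0 at 24, 48, 96 and 168 h are all Ndufaf4.

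At the other times few or no members were called. No member passed at 0 h, where 2.56% of all genes were called higher and 1.11% lower, or at 6 h, where 0.759% were called higher and 0.407% lower. At an unadjusted p under 0.05 the counts were 7 of 90 members at 0 h and 4 at 6 h. Of all 18193 genes, 3227 passed that level at 0 h and 2158 at 6 h. At 48 h 0 members were higher and 1 was lower, beside 10.7% and 1.89% of all genes. At 96 h the counts were 0 and 1, beside 0.522% and 0.885%, and at 168 h 0 and 1, beside 0.566% and 1.62%. The member called lower was Ndufaf4 each time. The median over the members was -0.073 at 0 h, when that over all genes was 0.035, and -0.028 without the CON array that stood apart. It was 0.002 against 0.035 at 6 h and 0.01 against 0.043 at 48 h. It was 0.056 against 0.065 at 96 h and -0.08 against 0.015 at 168 h. Over the 4307 genes with a mean of at least 9, the median was -0.007 at 0 h, 0.028 at 6 h and 0.067 at 48 h. Over those genes it was 0.025 at 96 h and -0.037 at 168 h.

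Ndufaf4, which encodes an assembly factor of complex I, was the member with a difference at several times. At 24 h it read 9.19, 9.15, 8.88, 9.24 and 8.70 in SPIO lungs, against 9.40, 9.51, 9.59, 9.30 and 9.63 in CON lungs. All SPIO mice lay below all CON mice at that time. The log2 fold change was -0.45 ± 0.10 (SE, n = 5 and 5; limma adjusted p = 0.00111; exact two-sided permutation p = 0.00794, which is the smallest p that this design allows).

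At 168 h Ndufaf4 read 8.59, 9.10, 8.90, 9.01 and 8.78 in SPIO lungs, against 9.63, 9.17, 9.33, 9.25 and 9.27 in CON lungs, again without overlap. The log2 fold change was -0.45 at 168 h (limma adjusted p = 0.00928). It was -0.37 at 48 h (adjusted p = 0.0132) and -0.41 at 96 h (adjusted p = 0.026). At 6 h it was -0.33 (adjusted p = 0.112) and at 0 h -0.17 (adjusted p = 0.395), neither of them called. The groups overlapped at 0, 48 and 96 h and did not at 6, 24 and 168 h. The effect at a later time did not pass the test of a change from 0 h at any time. Ndufaf4 has a second, dimmer probe set (mean 7.946), which read -0.21 at 24 h, -0.116 at 168 h, and -0.149 and 0.023 at 48 and 96 h. None of these was called, so the difference rests on the brighter probe set. The call at 24 h held without any single mouse, whereas that at 96 h was lost without CON mouse 1, 4 or 5 or SPIO mouse 2, 3 or 5 (adjusted p between 0.0521 and 0.0927). At 168 h it was lost without CON mouse 1 (adjusted p = 0.0755) or SPIO mouse 1 (adjusted p = 0.0744), and at 48 h without SPIO mouse 5 (adjusted p = 0.0543).

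The gene lies on chromosome 4, at chr4:24898083-24905001 (GRCm38.p6, plus strand). Its upstream sequence is shown because it holds one of the motifs searched, that of NRF1, a factor that binds promoters of many respiratory chain genes. The 140 bases before the start of Ndufaf4 (RefSeq, chr4:24897943-24898082, plus strand) are given with the NRF1 motif in capitals, a palindrome at -113 to -104 from the start that the letters GCGCATGCG match on both strands.
Ndufaf4: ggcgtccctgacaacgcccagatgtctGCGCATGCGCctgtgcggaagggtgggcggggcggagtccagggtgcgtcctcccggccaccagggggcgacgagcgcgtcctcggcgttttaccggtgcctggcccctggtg
Of the 90 members, 74 had a RefSeq promoter window of 300 bases (250 before and 50 after the start). The NRF1 letters were in 9 of these 74 (12.2%), and in 1.95% of all 27025 genes with a window. The letters AAGATGGCG of YY1 were in 7 (9.46%, against 1.64%), CCGGAAGT of ETS factors in 5 (6.76%, against 4.31%) and TCAAGGTCA of ERR in 2 (2.7%, against 0.466%), each searched on both strands. The letters of NRF1, YY1 and ETS contain CpG, and the members' windows held a median of 19.5 CpG, against 7 over all genes. The shares were not matched for CpG content. A match is a description of the letters and not a measured binding site.

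**Figure D2:**
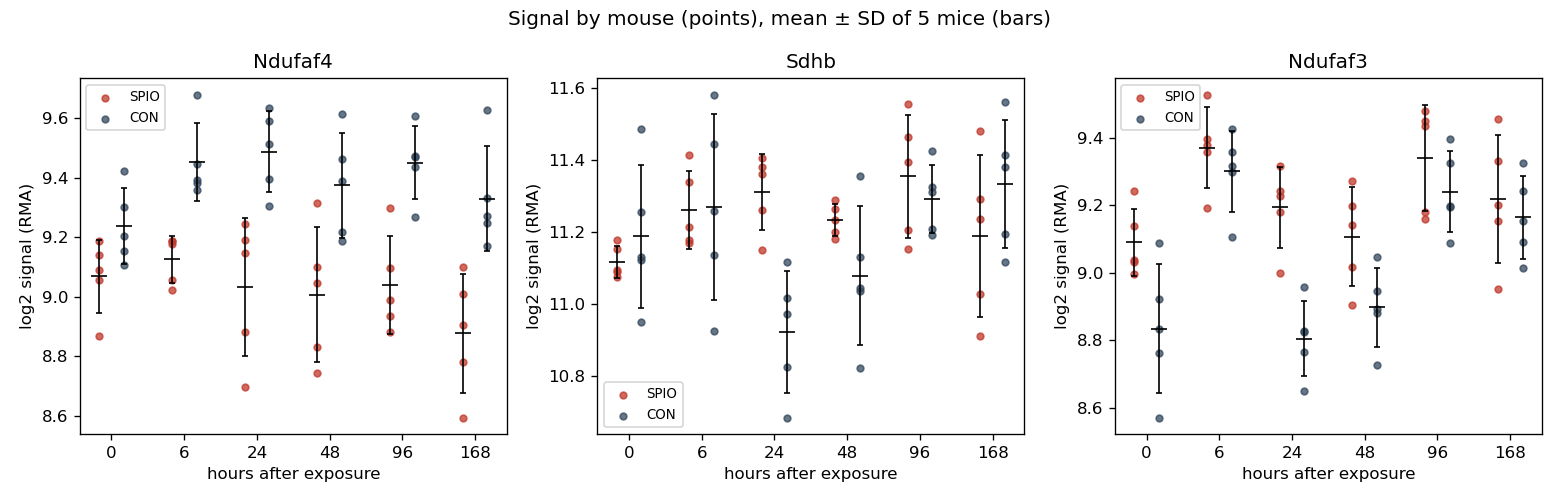
Log2 signal of Ndufaf4, Sdhb and Ndufaf3 in each mouse (points, SPIO left of CON at each time) with the mean ± SD of 5 mice, by hours after exposure. In Ndufaf4 the SPIO points lie below the CON points at 6, 24 and 168 h with no overlap, and in Sdhb and Ndufaf3 the SPIO points lie above the CON points at 24 h.

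Complex I had 10 members higher and 1 lower at 24 h. By role these were 2 of 6 core subunits, 5 of 30 accessory subunits and 3 of 8 assembly factors, and the lower one was Ndufaf4, another assembly factor. Ndufaf3, an assembly factor that works with Ndufaf4 in the early steps of complex I assembly, read 9.0, 9.32, 9.24, 9.23 and 9.18 in SPIO lungs at 24 h, against 8.82, 8.96, 8.65, 8.83 and 8.76 in CON lungs. The groups did not overlap, and the log2 fold change was 0.39 ± 0.09 (SE, n = 5 each; limma adjusted p = 0.00109). At 24 h Ndufaf3 was thus higher and Ndufaf4 lower in SPIO lungs than in CON lungs. Set against the other times of its own arm, Ndufaf3 was lower in CON at 24 h (-0.28, limma adjusted p = 0.00192). In CON it was also lower at 0 h (-0.25, adjusted p = 0.0135) and higher at 6 h (0.31, adjusted p = 0.00209). Ndufaf4 at 24 h differed by 0.01 in SPIO (adjusted p = 0.991) and by 0.12 in CON (adjusted p = 0.266).

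Ndufs8, a core subunit that carries iron-sulfur clusters, read 11.49, 11.55, 11.62, 11.47 and 11.58 in SPIO lungs at 24 h and 11.14, 11.43, 11.02, 11.35 and 11.18 in CON lungs, with a log2 fold change of 0.32 (limma adjusted p = 0.00329). Ndufb3, an accessory subunit of the membrane arm, read 10.82, 10.90, 10.78, 10.84 and 10.75 in SPIO lungs and 10.57, 10.73, 10.48, 10.59 and 10.50 in CON lungs at 24 h, with a log2 fold change of 0.24 (limma adjusted p = 0.00635). Neither gene overlapped between the groups. Ndufb3 was the only member whose effect at 24 h differed from that at 0 h in the interaction test (difference 0.37, limma adjusted p = 0.0426), which 1.03% of all genes passed upward. No member passed when any one of 12 of the 20 mice of these groups was left out: at 24 h SPIO mice 1 to 4 and CON mice 3 to 5, and at 0 h SPIO mice 2 and 4 and CON mice 1 to 3. Within the CON arm Ndufb3 was lower at 24 h than at the other times (-0.23, limma adjusted p = 0.000991). Within the SPIO arm it was lower at 0 h (-0.18, limma adjusted p = 0.0487) and was not called at 24 h. The other members of complex I called higher were Ndufa8, Ndufa9, Ndufaf5, Ndufaf7, Ndufs4, Ndufv1 and Ndufv3, with log2 fold changes between 0.20 and 0.34.

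Complex II, the succinate dehydrogenase that links the citric acid cycle to the chain, had 3 of 4 members higher at 24 h. Sdhb, the iron-sulfur subunit, read 11.36, 11.26, 11.38, 11.41 and 11.15 in SPIO lungs and 10.83, 11.12, 10.68, 11.02 and 10.97 in CON lungs, and the groups did not overlap. Its log2 fold change was 0.39 ± 0.10 (SE, n = 5 each; limma adjusted p = 0.00445). Sdhd and Sdhc, which anchor the enzyme in the membrane, were higher in SPIO than in CON lungs by 0.23 (adjusted p = 0.0116) and 0.27 (adjusted p = 0.0439). Within the CON arm all 3 were lower at 24 h than at the other times. The differences were -0.31 for Sdhb (limma adjusted p = 0.00336), -0.26 for Sdhd (adjusted p = 0.000405) and -0.27 for Sdhc (adjusted p = 0.00854). Within the SPIO arm Sdhb differed by 0.08 at 24 h (adjusted p = 0.881). Sdhc overlapped widely between groups, with 9.26 to 9.40 in SPIO lungs against 8.73 to 9.42 in CON lungs, and the exact two-sided permutation p was 0.0873. The call of Sdhc was lost without any one of 8 mice, all but CON mice 2 and 4, and that of Sdhd without CON mouse 3 (adjusted p = 0.0659). A second, dimmer probe set of Sdhd (mean 7.12) read -0.335 at 24 h and was not called.

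In complex III, Uqcrc1, a core protein on its matrix side, was the 1 of 8 members called at 24 h. It read 10.77, 10.73, 10.79, 10.71 and 10.42 in SPIO lungs and 10.49, 10.56, 10.26, 10.40 and 10.38 in CON lungs, and its log2 fold change was 0.27 (limma adjusted p = 0.0139). The lowest SPIO mouse overlapped the CON mice, and the call was lost without CON mouse 3 (adjusted p = 0.0581). Within the CON arm Uqcrc1 was lower at 24 h than at the other times (-0.21, limma adjusted p = 0.0121). Cyc1, the cytochrome c1 of complex III, lies outside the rule and had a log2 fold change of 0.34 at 24 h (limma adjusted p = 0.008). That of Cycs, the cytochrome c that carries electrons on to complex IV, was -0.40 and was not called (adjusted p = 0.0755).

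In complex IV, the small subunits Cox8a, Cox7a2 and Cox6b1, the common isoforms in most tissues, were the 3 of 17 members called at 24 h. Cox8a read 11.31, 11.39, 11.48, 11.28 and 11.48 in SPIO lungs and 10.95, 11.30, 10.98, 11.19 and 11.15 in CON lungs, with a log2 fold change of 0.28 (limma adjusted p = 0.00407). Cox7a2 was higher by 0.19 (adjusted p = 0.0179) and Cox6b1 by 0.19 (adjusted p = 0.0424), and Cox6b1 did not overlap between the groups. The call of Cox6b1 was lost without CON mouse 1 or 3 or SPIO mouse 1, 2, 3 or 4, and that of Cox7a2 without CON mouse 1 (adjusted p = 0.064). In complex V, 3 of 17 members were called. Atp5g2, a subunit of the proton-carrying c ring, read 10.79, 10.80, 10.76, 10.63 and 10.74 in SPIO lungs and 10.29, 10.63, 10.36, 10.47 and 10.42 in CON lungs. Its log2 fold change was 0.31 (limma adjusted p = 0.00895). Atp5c1 and Atp5d, the gamma and delta subunits of the central stalk, were higher by 0.25 (adjusted p = 0.0135) and 0.26 (adjusted p = 0.0174), and Atp5d was not called without CON mouse 3 or SPIO mouse 2.

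The 20 members called higher had 20 further probe sets, of which 15 were above 0 at 24 h, 7 were called higher and 0 were called lower. With the mean of each gene's probe sets, Cox8a (adjusted p = 0.182), Atp5g2 (adjusted p = 0.329), Atp5c1 (adjusted p = 0.0731) and Sdhc (0.094, adjusted p = 0.435) were not called, and Sdhd turned to -0.052. Leaving out CON array 3 of 24 h left 12 members called in all, and array 2 left 30. With the mean of 12 cardiac muscle markers as a covariate, chosen after seeing the data, 40 members were called, 39 of them higher. The share of all genes called in that fit is not given here. The share of 20.3% called higher belongs to the fit without the covariate.

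Of the marker lists of other cells at 24 h, that of monocytes had the most calls. Of 5 monocyte markers 4 were called higher, beside 20.3% of all genes, and the other 1 was below 0 (-0.286). Their median was 1.41, and their mean ran from 9.55 to 10.72 in SPIO lungs and 8.26 to 9.99 in CON lungs. Of 4 neutrophil markers 0 were called, with a median of 0.69, and of 6 markers of white or all fat 0, with a median of 0.84. Of 7 brown fat markers 1 was called lower, and of the 6 lung markers 1 was called higher and 1 lower. The cardiac muscle markers had 0 of 12 called and a median of -0.39. The part of these cells in the members' difference was not tested.

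**Figure D3:**
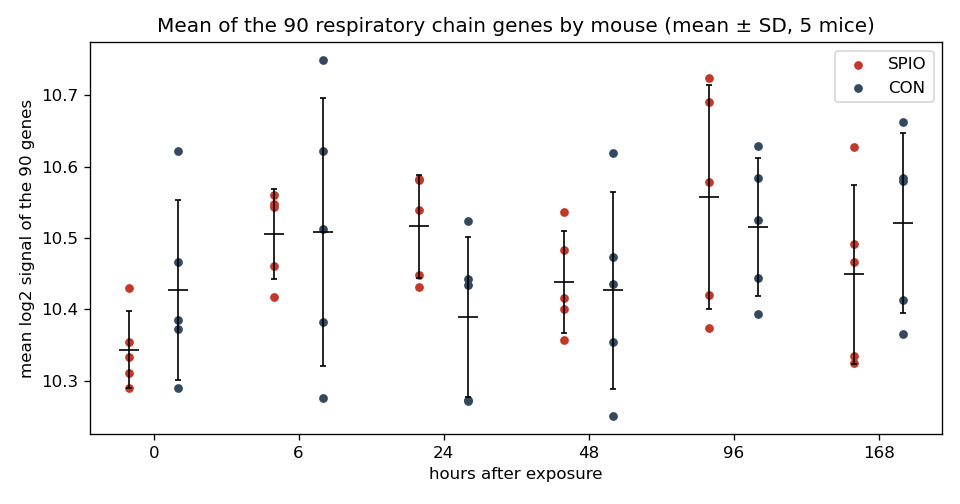
Mean log2 signal of the 90 genes in each mouse (points, SPIO left of CON), with the mean ± SD of 5 mice, by hours after exposure. At 24 h the SPIO mean was 10.52 and the CON mean 10.39, and the SPIO group at 0 h was the lowest of its arm at 10.34.

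Within each arm, each group was set against the other 5 groups of its arm. CON at 24 h was lower than the other CON groups in 16 members and higher in 1, with 21.3% of all genes lower and 7.41% higher. Among the 16 lower members were Sdhb, Sdhc, Sdhd, Uqcrc1, Uqcrfs1, Ndufs1, Ndufb3, Ndufaf3 and Ndufaf7. SPIO at 24 h differed from the other SPIO groups in 0 members by limma, with 6 at an unadjusted p under 0.05. Of all 18193 genes, 0.082% were higher and 0.044% lower in that contrast, and 1529 had an unadjusted p under 0.05. The mean of the 90 members at 24 h was 10.52 ± 0.07 in SPIO lungs and 10.39 ± 0.11 in CON lungs (SD, n = 5 each). These contrasts and those of SPIO against CON share their arrays.

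SPIO at 0 h was lower than the other SPIO groups in 14 members, beside 1.91% of all genes, and CON at 0 h was lower than the other CON groups in 4, beside 4.22%. Without the CON array that stood apart these counts were 24 and 10, and the shares of all genes without it are not given here. The 14 were Atp5j2, Atp5mpl, Cox6b1, Ndufa1, Ndufa12, Ndufa13, Ndufa2, Ndufa3, Ndufaf8, Ndufb3, Ndufc1, Ndufs8, Uqcr11 and Uqcrq. The largest fall was that of Ndufc1, at -0.33 ± 0.08 (SE; limma adjusted p = 0.00988). Leaving out SPIO array 1 of 0 h left 1 member, array 2 left 2, array 3 left 8 and array 5 left 6, so the count depended on which mouse was left out. The cardiac muscle markers of SPIO at 0 h had a median of -0.68 against the other SPIO groups, with 0 of 12 called. The SPIO against CON contrast at 0 h called 0 members.

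Among the genes around the chain at 24 h, where 20.3% of all genes were called higher and 3.66% lower, 15 of 34 assembly factors outside the rule (44.1%) were higher and 0 lower, among them Surf1, Cox10 and Bcs1l, which help to build complexes III and IV. Mitochondrial import genes had 12 of 24 higher (50%) and 1 lower, and mitochondrial ribosome genes 34 of 76 higher (44.7%) and 1 lower. Citric acid cycle genes had 5 of 16 higher (31.2%), Pcx among them, and iron-sulfur cluster assembly genes 4 of 12 higher (33.3%) and 1 lower. Regulators of mitochondrial genes had 3 of 14 higher (21.4%; Nrf1, Esrra and Polg), a share near that of all genes. Cytosolic ribosome genes had 3 of 48 higher (6.25%), below that of all genes, and 2 lower, and proteasome genes 16 of 40 higher (40.0%) and 3 lower.

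The muscle isoforms Cox6a2, Cox7a1 and Cox8b, used by heart and skeletal muscle in place of the common forms, were not called at any time. At 0 h Cox8b read 6.34, 7.42, 7.07, 8.62 and 6.94 in SPIO lungs, against 9.66, 8.40, 6.57, 7.62 and 8.57 in CON lungs, with a log2 fold change of -0.89 ± 0.67 (SE; limma adjusted p = 0.509). The groups overlapped. Without the CON array that stood apart, the first of these, the difference of Cox8b at 0 h was -0.513 (adjusted p = 0.754). Cox7a1 read 6.48, 7.39, 7.04, 8.82 and 6.73 in SPIO lungs at 0 h, against 8.76, 8.60, 6.64, 7.79 and 8.78 in CON lungs, a difference of -0.82 ± 0.71 (SE; adjusted p = 0.573). Cox6a2 had a log2 fold change of -0.44 at 0 h (adjusted p = 0.619). With the cardiac marker mean as a covariate, Cox6a2 was called at 24 h (0.476, adjusted p = 0.0136).

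These 3 genes followed the mean of the 12 cardiac muscle markers, among them Myh6, across the 60 mice, once group means were removed. Heart muscle cells also sheathe the pulmonary veins of mice. The correlation was 0.942 for Cox6a2 (rho 0.935), 0.967 for Cox7a1 (rho 0.966) and 0.955 for Cox8b (rho 0.955), each with a permutation p of 1e-05 after adjustment over 4 relations, the smallest that 1e+05 resamples allow. Without the 2 mice farthest from the median the values were 0.944, 0.965 and 0.951. Within the 30 SPIO mice they were 0.95, 0.952 and 0.946, and within the 30 CON mice 0.936, 0.979 and 0.963.

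The mean of the other 87 members correlated with the cardiac markers at 0.732 (0.581 within SPIO and 0.842 within CON). Over the members the median correlation was 0.573, and 52 of 90 exceeded 0.5, as did 4.66% of all genes. Atp5g1, a c ring subunit, was at 0.877 and Cox5b, a complex IV subunit, at 0.821, while Ndufaf3 was at 0.174 and Ndufaf4 at 0.365. The correlations are between levels of the same lung extracts.

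**Figure D4:**
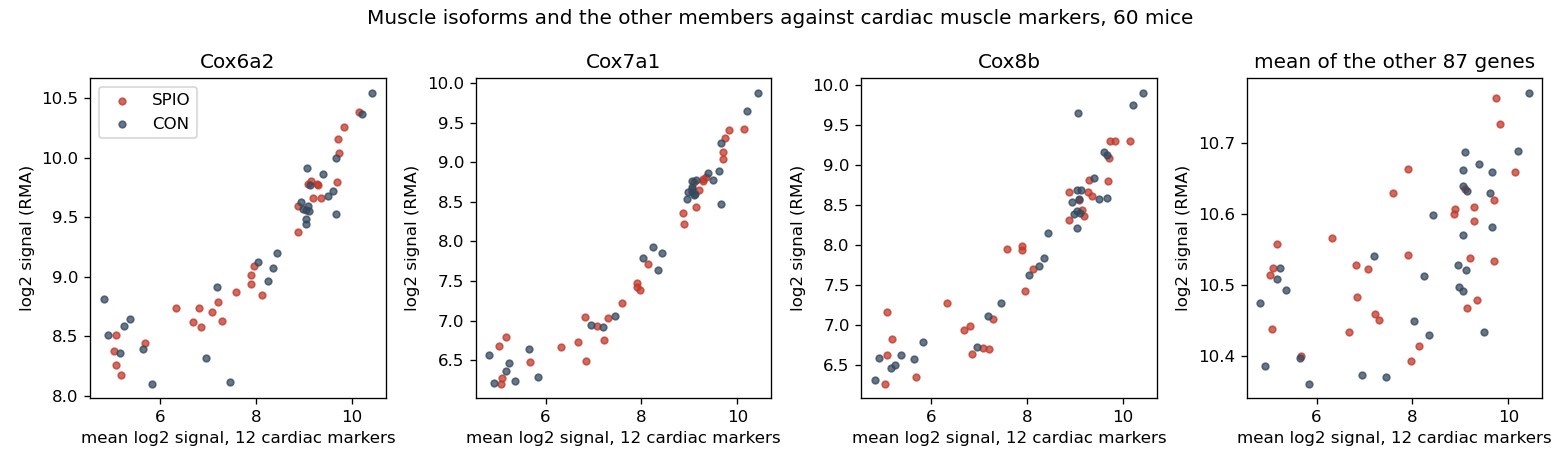
Log2 signal of Cox6a2, Cox7a1, Cox8b and the mean of the other 87 members (vertical axes) against the mean log2 signal of 12 cardiac muscle markers (horizontal axis) in 60 mice, SPIO and CON. The muscle isoforms follow the markers closely, at 0.942 to 0.967 with group means removed, and the other members less so, at 0.732.

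The upstream sequences of the muscle isoforms and their common counterparts are shown because the pairs differ in CpG content, a feature the rule did not use. Each is the 120 bases before the RefSeq start (GRCm38.p6), with CpG in capitals; they lie at chr7:30184051-30184170 (plus), chr9:79759854-79759973 (minus), chr7:140900447-140900566 (minus) and chr19:7217617-7217736 (minus), in the order given.
Cox7a1: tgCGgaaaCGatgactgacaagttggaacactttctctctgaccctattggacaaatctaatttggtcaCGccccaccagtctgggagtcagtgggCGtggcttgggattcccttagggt
Cox7a2: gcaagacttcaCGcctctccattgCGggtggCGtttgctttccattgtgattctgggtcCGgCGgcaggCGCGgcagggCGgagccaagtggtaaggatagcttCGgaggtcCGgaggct
Cox8b: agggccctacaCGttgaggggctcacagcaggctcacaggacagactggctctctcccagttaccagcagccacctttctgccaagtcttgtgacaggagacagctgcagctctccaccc
Cox8a: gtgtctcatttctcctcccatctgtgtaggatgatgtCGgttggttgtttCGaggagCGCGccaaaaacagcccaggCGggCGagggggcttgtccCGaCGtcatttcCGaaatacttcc
In the 300-base window Cox7a1 held 7 CpG and its counterpart Cox7a2 held 20, and Cox8b held 2 and its counterpart Cox8a 19. The median was 19.5 over the 74 members with a window and 7 over all genes. No window was found for Cox6a2.

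The other isoforms restricted to a tissue or condition did not pass at any time. Cox4i2, the lung and low-oxygen isoform of a complex IV subunit, differed by -0.02 to 0.15, and Ndufa4l2, an isoform induced by low oxygen, by -0.27 to 0.16. The testis isoforms Cox6b2, Cox7b2 and Cox8c ranged between -0.25 and 0.30. Of the common counterparts, Cox4i1, Cox6a1 and Ndufa4 did not pass at any time, with log2 fold changes between -0.11 and 0.18, but without the CON array that stood apart Cox6a1 passed at 168 h (0.18, adjusted p = 0.0441, against 0.0589 with all arrays). Cox7c, a complex IV subunit whose probe set here was dim, read -0.71 ± 0.21 at 96 h (adjusted p = 0.0626). Members read from dim probe sets are the least certain.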

How the data were processed

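Total RNA of the right diaphragmatic lobe was hybridized to Affymetrix mouse genome arrays, and the deposited log2 values were made by the authors with RMA (version not given in the sources used here). Of 45101 rows, 64 controls were left out; 34945 probe sets had 1 gene symbol, 932 had several and 9160 had none, and the probe set with the highest mean over the arrays stood for each of 18193 genes. The 60 columns were matched to groups by their labels. SPIO minus CON was tested at each time with limma 3.58.1 in R 4.3.3, in 1 fit over 12 groups with 48 residual degrees of freedom and Benjamini-Hochberg adjustment over all genes, without a fold minimum. Single genes were also compared by the exact permutation test over 252 divisions. Alternatives were other probe sets, a filter on dim genes, other scalings, each time fitted alone, a replicate block, array weights, the methods' test (analysis of variance with Tukey comparisons), a fold minimum, each mouse left out and, added after seeing the data, the cardiac marker mean as a covariate and the CON array that stood apart left out. The test was also tried on simulated data with known changes. Named genes were, at each time and complex, the 3 higher and 3 lower members with the smallest p among those called, members called at 3 or more times, and the isoforms restricted to a tissue with their counterparts. The members, lists and motifs were chosen with earlier results of these data known. Promoter sequences and positions came from RefSeq (GRCm38.p6). Array values carry no depth, so the number of mice limits the precision. Figures were drawn in Python.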

Additional observations from a re-analysis of the deposited data

Results flagged for a closer look

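In a group of 5 mice, a lowest or highest value was flagged where its gap to the next, over the group's range, was above 0.71; chance flags about 1 in 20 groups, and 12 of 372 groups tested (3.23%) were flagged. SPIO groups with a mouse apart were Uqcrc1 at 24 h (ratio 0.777, with 10.42 against 10.71 to 10.79), Atp5g2 at 0 h (0.801), Atp5c1 at 0 h (0.71001, at the limit), Sdhd at 96 h (0.712), Cox8c at 6 h (0.718) and the mean of complex III at 0 h (0.783). CON groups were Ndufb3 at 0 h (0.714), 96 h (0.736) and 168 h (0.828), Ndufaf4 at 6 h (0.722, with 9.68 against 9.36 to 9.45), Sdhc at 168 h (0.757) and Atp5d at 48 h (0.721). For Ndufb3 at 0 h the mouse apart was that of CON array 1, whose Xist level went against its label (10.92 against 10.69 to 10.76). In Ndufb3 the effect of SPIO at 24 h exceeded that at 0 h by 0.37 on the log2 scale (limma adjusted p = 0.0426). No member passed that test without CON array 1 of 0 h.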

How the results depend on the processing

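The number of mice, 5 per group, limits the precision of these results. The members called changed with the setting. The shares of all genes called under the other settings are not given here. With each time fitted alone the counts were 10 at 24 h and 0 at 48, 96 and 168 h. The methods' test gave 9 for 24 h, 1 for the 6 h lungs and 2 for 168 h, and a 1.5-fold minimum left 0 at 24, 48, 96 and 168 h. Array weights gave 1 member called at 0 h and 2 members called at 6 h. They also gave 7 for the 48 h lungs, 2 for the 96 h lungs and 4 for the 168 h lungs. The filter on dim genes gave 1 for 6 h, 2 for the 96 h lungs and 3 for the 168 h lungs. Quantile normalization again gave 1 for 0 h, 1 for 6 h and 2 for the 168 h lungs. All probe sets gave 2 at 96 h, and averaging a gene's probe sets gave 0 at 96 and 168 h. The cardiac covariate, added after seeing the data, gave 40 at 24 h and 4 at 48 h. Leaving out the CON array of 0 h that stood apart, also added after seeing the data, gave 2 at 168 h, 24 lower in SPIO at 0 h and 0 in the 24 h interaction. The cause was not tested.

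Leaving out each mouse in turn gave 0 to 1 members at 0 h and likewise 0 to 1 at 6 h. It gave 12 to 30 members for 24 h, 0 to 3 for the 48 h lungs, then 0 to 2 for 96 h and 0 to 4 for the 168 h lungs. The members' median ran from -0.09 to -0.028 at 0 h and from -0.048 to 0.066 at 6 h. For 24 h it ran from 0.121 to 0.196, for 48 h from -0.023 to 0.048, for 96 h from 0.013 to 0.104 and for 168 h from -0.117 to -0.044.

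The count lower in SPIO at 0 h, 14, was 3 with plain probe sets, 25 with the filter, 23 with array weights, 0 with the fold minimum, 22 with the covariate and 1 to 10 without each mouse. The count lower in CON at 24 h, 16, was 10 with quantile normalization, 0 with the fold minimum, 33 with the covariate and 8 to 23 without each mouse. Ndufb3 as the 1 member in the 24 h interaction was 0 with all probe sets, with the mean of probe sets, with quantile normalization and with the fold minimum, 5 with the covariate, and 0 to 2 without each mouse. Sdhd at 24 h was -0.052 with the mean of its probe sets.

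Replicate numbers were not treated as pairs in the main fit. Of 30 same-number pairs, 7 correlated above 0.1 (-0.508 to 0.466). Pairs with different numbers were not correlated, so these values cannot tell whether the numbers pair the mice. A replicate block gave 23 members called at 24 h and 12 lower in SPIO at 0 h.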
